A study of Homo sapiens with 10 samples.

Results

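AIMP1 was raised, lowered or supplied as protein in 2 multiple myeloma lines, and all 8 manipulated libraries were set against wild type together. The members are the genes whose level differed from wild type in the same direction in every manipulated library: 923 genes were higher and 845 were lower, of 12872 tested genes whose mean reached 1 FPKM (fragments scaled by transcript length and library total). The lines are H929, an established myeloma line, and a line labelled OCI, whose full name the labels do not give. In each line the groups were wild-type cells (1 library), AIMP1 knockdown (2 libraries), AIMP1 overexpression (1 library) and cells treated with AIMP1 protein (1 library). The labels give no vector, hairpin, dose or treatment time, and no control vector or vehicle library was analysed here. Whether libraries stem from separate cultures is not said either, so p-values measure the spread between these libraries, which may be technical in part. In the fit of manipulated against wild type, the spread behind each SE and p-value also holds differences between the manipulations. It holds differences in response between the lines as well.

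AIMP1 is best known as a scaffold that holds aminoacyl-tRNA synthetases together in a large cytosolic complex. It is also released from cells, and the released protein acts as a cytokine on immune cells. Myeloma cells are malignant plasma cells, which make immunoglobulin in bulk and depend on endoplasmic reticulum folding, the proteasome and NF-kB signalling. A gene that differs the same way under knockdown, overexpression and added protein does not follow the amount of AIMP1 mRNA.

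Several properties of the libraries bear on every result. Each line had 1 wild-type library, so the 4 differences of a line share it and are not independent. Depth relative to OCI wild type, set at 100% and estimated from the lowest values, was 41.9% in H929 wild type and 27.6% to 38.0% in the other H929 libraries, and 27.7% to 73.3% in the manipulated OCI libraries. Wild type was therefore the deepest library of each line, and the names of both wild-type columns end in ZY, which no label explains. Depth as estimated, this ending and wild-type state cannot be told apart. Plasma cell markers were high in both lines, with SDC1 at 180 to 440 FPKM and JCHAIN at 1312 to 2560 FPKM, although SLAMF7 did not exceed 0.990 FPKM in H929. The myeloid marker S100A9 stood at 3.39 FPKM in OCI knockdown 1 and 6.22 FPKM in OCI protein, and the epithelial marker KRT19 at 1.60 and 3.39 FPKM. Both genes were listed at 0 in the 8 other libraries. GNLY, a marker of NK cells, stood at 18.1 FPKM in H929 knockdown 1 and 7.38 in H929 knockdown 2, against 1.304 in H929 wild type. Summed over each marker list, wild-type and manipulated libraries ranged from 0.452 to 1.45 and 0.0922 to 19.6 FPKM for T and NK cells, from 0.187 to 0.668 and 0.159 to 4.74 for stroma and endothelium, and from 9.63 to 18.4 and 8.98 to 38.6 for epithelium. The part of such RNA in the results was not tested. OCI protein also stood apart in its short structural RNAs, which made 49.6% of its FPKM sum against 72.2% to 80.7% in the 9 other libraries, with RN7SL1, RN7SL2 and RN7SK listed at 0. In bulk RNA, fewer cells of a type and less RNA per cell cannot be told apart.

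AIMP1 itself was read first as a check of the labels. In H929 it stood at 14.5 FPKM in wild type, 14.2 and 3.55 in knockdown 1 and 2, 62.5 in overexpression and 20.3 in protein. In OCI it stood at 14.3 in wild type, 5.03 and 2.35 in knockdown 1 and 2, 59.7 in overexpression and 14.4 in protein. The library labelled H929 AIMP1 knockdown 1 thus held 98.2% of the wild-type level, against 16.4% to 35.1% in the 3 other knockdown libraries. Over all 8 libraries the fitted difference was -0.11 ± 0.97 on the log2(FPKM + 1) scale (limma adjusted p = 0.980), the sum of opposite movements.

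No gene passed the adjusted threshold of 0.05 for manipulated against wild type. The model had cell line and manipulated state as terms, and limma called 0 genes higher and 0 lower (0% of those tested), with a smallest adjusted p of 0.720. At an unadjusted p under 0.05, 514 genes were higher (3.99%) and 240 lower (1.86%). With knockdown, overexpression and protein weighted equally, 0 genes were called, the smallest adjusted p was 0.143 and 1324 genes had an unadjusted p under 0.05 (10.3%). The named genes below had adjusted p-values from 0.720 upwards in the limma model of all 8 libraries, so each value is a description and not a call. Leaving out libraries or the filter gave calls of lower genes: 6 without H929 wild type, 4 without OCI wild type, RNVU1-7 without OCI overexpression and RNU2-63P without OCI knockdown 1, and 21 genes with no filter on low values. Differences are given ± SE on the log2(FPKM + 1) scale, which understates those of low genes. Their median SE over all genes was 0.302.

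The same-sign genes made up 7.17% (higher) and 6.56% (lower) of the genes tested. The median over all genes was itself 0.045 above wild type, and 0.170 above in H929 protein. After median centring the counts were 781 higher (6.07%) and 1011 lower (7.85%), and after quantile normalization 703 (5.46%) and 988 (7.68%). The higher genes thus made up 52.2% of the same-sign genes as deposited, 43.6% after centring and 41.6% after quantile normalization. The balance also moved with the filter: of 9043 genes with a mean of 5 FPKM or more, 634 were higher (7.01%) and 725 lower (8.02%). A difference of at least 0.5 in each of the 8 libraries was met by 48 higher genes (0.373%) and 7 lower genes (0.0544%). A further 1521 genes were higher and 1283 lower in 7 of the 8 libraries. At the expression limit, CPSF1P1 lay just inside among the higher genes (mean 1.01 FPKM) and ZXDA just outside (0.999), and among the lower genes KXD1-AS1 lay inside (1.03) and SEMA3C outside (0.995).

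The size of these differences varied by library. The median difference of the 923 higher genes was 0.37, 0.46, 0.55 and 1.01 in H929 knockdown 1, knockdown 2, overexpression and protein, and 0.30, 1.005, 0.74 and 0.80 in the same libraries of OCI. For the 845 lower genes it was -0.28, -0.31, -0.54 and -0.70 in H929 and -0.18, -0.85, -0.48 and -0.66 in OCI. OCI knockdown 1 was nearest to wild type for 297 of the higher genes (32.2%) and 328 of the lower genes (38.8%), so it decided membership more often than any other library. H929 protein held the largest difference of 301 higher genes, and OCI knockdown 2 that of 284 lower genes. Without OCI knockdown 1 and OCI protein, the libraries with S100A9 and KRT19, 1777 genes were higher and 1556 lower in the 6 remaining libraries. Leaving libraries out can only add genes to these counts. The 6 libraries were not free of such markers: in OCI overexpression the myeloid markers CSF1R and ITGAM stood at 2.29 and 1.41 FPKM. All tested genes stood at 13.8% higher and 12.1% lower in those 6 libraries. There the higher genes were 11 of 13 mitochondrially encoded mRNAs, 7 of 19 NF-kB genes, 10 of 21 interferon-stimulated genes, 8 of 15 MHC class I genes and 40 of 79 ribosomal protein genes. The lower genes were 26 of 34 ribosome biogenesis genes, 11 of 32 proteasome subunits and 17 of 36 S phase genes. Without the library labelled H929 AIMP1 knockdown 1, 1206 genes were higher (9.37%) and 1032 lower (8.02%) in the 7 others.

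Higher and lower genes differed in the transcripts they hold. The higher genes had a median transcript length of 2712 bases and a GC content of 51.2%, the lower genes 3640 bases and 47.4%, and all tested genes 3247 bases and 48.7%. With the nuclear protein-coding genes cut into 5 classes by transcript length, 10.6% were higher and 5.65% lower in the class of shortest transcripts, and 5.01% and 7.45% in the class of longest transcripts. Protein-coding genes were 85.2% of the higher genes and 92.2% of the lower genes, against 84.5% of all tested genes. By chromosome, the mitochondrial genome stood apart with 84.6% of its tested genes higher, while the nuclear chromosomes ranged from 1.49% on chromosome 21 to 10.6% on chromosome 19. These shares are descriptions, since neighbouring genes and genes of like length are not independent.

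Among genes above 0 in every library, the gene whose smallest difference was largest was MT-ND5, a mitochondrially encoded subunit of respiratory complex I. It stood at 271 FPKM in wild type of H929 and at 536, 573, 1026 and 541 in H929 knockdown 1, knockdown 2, overexpression and protein. In OCI it stood at 139 in wild type and at 386, 404, 847 and 287 in the same order. Overexpression gave the highest level of both lines, at 3.78-fold and 6.07-fold wild type, and the smallest ratio was 1.98-fold in H929 knockdown 1. The fitted difference was 1.45 ± 0.37 (limma adjusted p = 0.720), and with the 3 manipulations weighted equally 1.51 (adjusted p = 0.143).

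**Figure D1:**
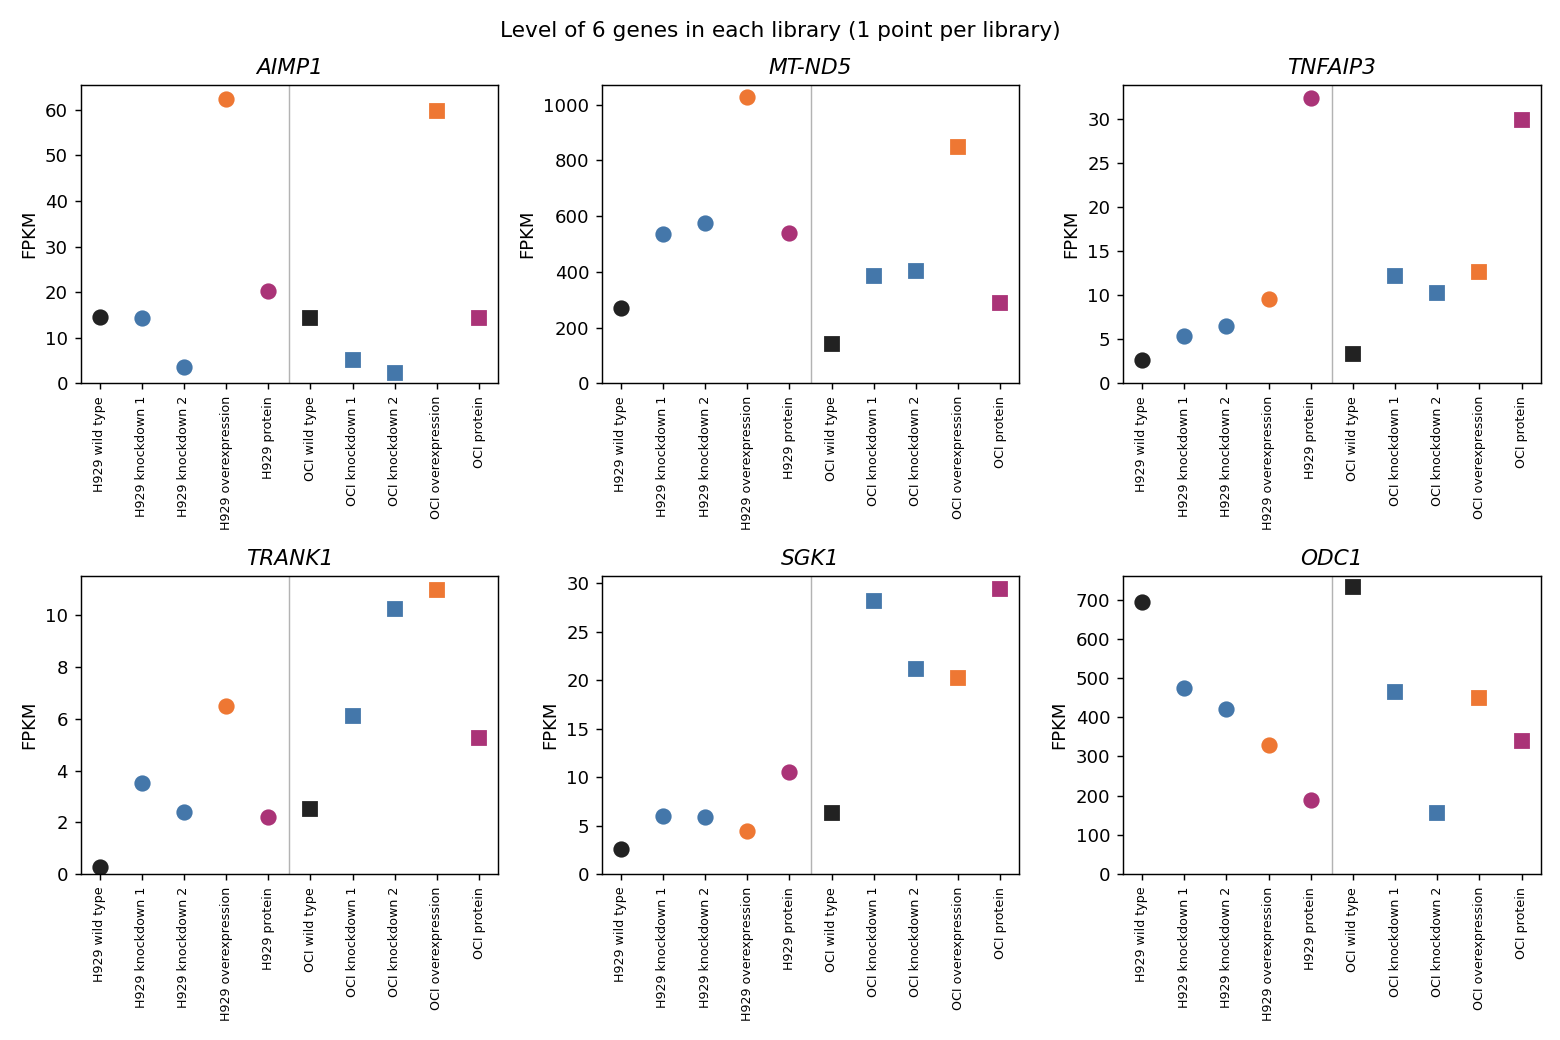
FPKM (linear axis from 0) of AIMP1, MT-ND5, TNFAIP3, TRANK1, SGK1 and ODC1 in each of the 10 libraries, with 1 point per library and no error bar, circles for H929, squares for OCI and colours for the groups. AIMP1 follows the labels except in H929 knockdown 1 (14.2 against 14.5 in wild type), whereas the next 4 genes lie above wild type of their line in each manipulated library and ODC1 below it.

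The mitochondrial genome encodes 13 proteins, all of them subunits of the respiratory chain or of ATP synthase. Of these mRNAs 11 of 13 were higher in all 8 libraries (84.6%, against 7.17% of all tested genes), with a median fitted difference of 1.24 against 0.045 over all genes. MT-CYB, the complex III subunit, stood at 904 FPKM in wild type of H929 and at 1594, 1580, 2077 and 1484 in the manipulated libraries (knockdown 1, knockdown 2, overexpression and protein, the order used from here on). In OCI MT-CYB stood at 837 in wild type and at 1316, 1797, 2611 and 2042. The smallest of its 8 differences was 0.65, in OCI knockdown 1. MT-ND4 (1.38 ± 0.33) and MT-ND4L (1.26 ± 0.44), which encode further complex I subunits, also lay above wild type throughout. MT-ATP8 was higher in 7 of 8, at 4620 FPKM in H929 protein against 5490 in wild type. MT-ND6, the single protein gene transcribed from the light strand, had a fitted difference of -0.58 ± 0.31 and was above wild type in OCI knockdown 1 alone, at 365 FPKM against 311. After quantile normalization 6 of the 13 mRNAs were higher in all 8 libraries, and after median centring 10.

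The nuclear genes that serve mitochondrial transcription showed another pattern: 8 of 29 were lower in all 8 libraries (27.6%, against 6.56% of all tested genes) and 1 was higher. TFAM, which packages mitochondrial DNA and starts its transcription, stood at 26.8 FPKM in wild type of H929 and at 24.1, 12.9, 14.2 and 16.3 in the manipulated libraries. In OCI TFAM stood at 35.6 in wild type and at 28.3, 11.5, 15.2 and 14.9. Knockdown 1 was nearest to wild type in both lines. TFB2M, the transcription initiation factor, differed by -0.58 ± 0.27 and PNPT1, an RNA-degrading enzyme of mitochondria, by -0.70 ± 0.33. TFB1M, the methyltransferase of mitochondrial 12S rRNA, was the member that was higher (0.73 ± 0.29). Among 41 nuclear-encoded subunits of oxidative phosphorylation 5 were higher in all 8 (12.2%, against 7.17% of all tested genes) and 2 lower (4.88%). Their median was 0.17. COX7C (0.45 ± 0.24) and NDUFB8 (0.33 ± 0.24) were among the higher subunits, and NDUFS3 (-0.39 ± 0.24) and ATP5PB (-0.37 ± 0.19) were the lower ones.

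**Figure D2:**
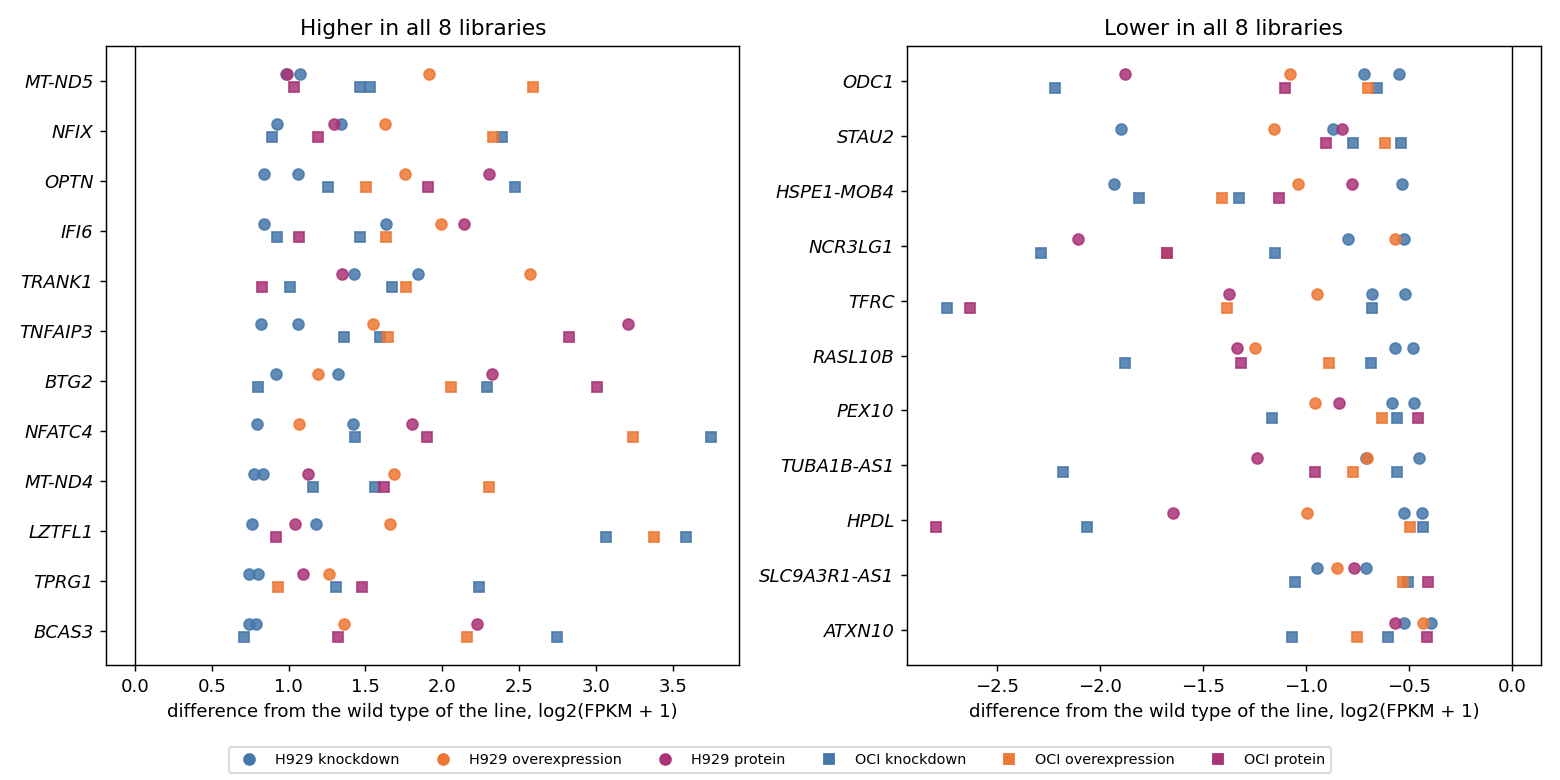
Difference from wild type of the line on the log2(FPKM + 1) scale in each of the 8 manipulated libraries (1 point each, circles H929, squares OCI) for 12 higher and 11 lower genes whose smallest difference was largest. Every point lies on 1 side of 0 by the choice of the genes, and values of 1 manipulation can lie far apart between the lines, as in LZTFL1 under knockdown (0.76 and 1.18 in H929, 3.06 and 3.59 in OCI).

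NF-kB is a family of transcription factors that is active in much of myeloma, and its targets include its own inhibitors. Promoter sequences of 4 members are shown here because each was found to hold a motif named with its group below. The first pair holds the NF-kB (kB) motif in capitals, the next the ISRE bound by interferon-activated factors, and the last the E-box bound by MYC and related factors. They run 5′ to 3′ over the 250 bases before the gene's start in RefSeq, build GRCh38.p14: chr6:137867009-137867258 (plus strand) for TNFAIP3, chr10:13099832-13100081 (plus) for OPTN, chr1:27672193-27672442 (minus) for IFI6 and chr16:69132399-69132648 (plus) for UTP4.
TNFAIP3: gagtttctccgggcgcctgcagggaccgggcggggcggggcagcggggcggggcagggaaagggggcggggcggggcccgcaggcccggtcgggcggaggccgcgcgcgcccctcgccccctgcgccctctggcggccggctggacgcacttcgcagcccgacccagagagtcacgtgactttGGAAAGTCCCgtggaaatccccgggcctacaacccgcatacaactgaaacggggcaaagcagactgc
OPTN: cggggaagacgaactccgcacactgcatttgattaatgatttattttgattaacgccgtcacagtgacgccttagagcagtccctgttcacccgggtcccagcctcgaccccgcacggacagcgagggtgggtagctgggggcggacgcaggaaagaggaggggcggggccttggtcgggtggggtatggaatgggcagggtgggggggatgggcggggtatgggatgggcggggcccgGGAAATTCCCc
IFI6: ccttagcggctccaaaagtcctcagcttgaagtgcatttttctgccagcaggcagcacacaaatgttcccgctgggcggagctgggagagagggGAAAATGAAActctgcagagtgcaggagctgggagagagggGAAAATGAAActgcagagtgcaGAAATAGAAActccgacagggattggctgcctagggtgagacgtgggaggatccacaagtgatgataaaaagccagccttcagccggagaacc
UTP4: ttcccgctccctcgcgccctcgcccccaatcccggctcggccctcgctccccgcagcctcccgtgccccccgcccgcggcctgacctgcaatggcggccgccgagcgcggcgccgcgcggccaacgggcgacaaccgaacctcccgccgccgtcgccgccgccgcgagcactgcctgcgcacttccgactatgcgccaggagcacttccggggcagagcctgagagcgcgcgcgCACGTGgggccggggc

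The marked stretches begin at -67 in TNFAIP3 and -11 in OPTN, at -156, -115 and -93 in IFI6, and at -16 in UTP4; TNFAIP3 also holds an unmarked CACGTG. Promoters of 300 bases (250 before and 50 after the start) were matched by symbol for 679 of the higher and 675 of the lower genes, and both strands were searched. Of the 100 named genes 83 were matched, and 4 of them held the kB motif, 6 the ISRE and 19 the E-box. The kB motif (GGGA and TTTCC with 1 free base between them, or GGGAA joined to TTCCC) was in 1.18% of the higher, 0.296% of the lower and 0.541% of 9427 tested genes. The ISRE (GAAA and GAAA with 2 free bases between them) was in 4.27%, 2.52% and 2.67% in the same order, and the E-box (CACGTG) in 11.05%, 15.9% and 10.6%. The glucocorticoid element (GNACA and TGTNC with 3 free bases between them) was in 3 of 679 higher, 0 of 675 lower and 18 of 9427 tested genes. The AP-1 motif (TGANTCA) was in 35, 27 and 375 of these genes, and the CRE (TGACGTCA) in 20, 15 and 338. Over all 27305 RefSeq promoters the 6 shares were 0.615%, 3.65%, 7.43%, 0.388%, 7.76% and 1.98% in the order given. A match is a run of letters and not a bound site. Only the letters given were searched, so other forms of each motif were neither counted nor marked.

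TNFAIP3 encodes A20, a ubiquitin-editing inhibitor of NF-kB. It stood at 2.60 FPKM in wild type of H929 and at 5.36, 6.53, 9.55 and 32.3 in the manipulated libraries. In OCI it stood at 3.36 in wild type and at 12.2, 10.2, 12.7 and 29.9. Protein-treated cells had the highest level of both lines, 12.4-fold and 8.88-fold wild type, and the other 6 libraries lay 2.06-fold to 3.76-fold above it. The fitted difference was 1.76 ± 0.53 (limma adjusted p = 0.720, and 0.143 with the manipulations weighted equally). OPTN, an autophagy receptor that also restrains NF-kB, stood at 10.5 FPKM in wild type of H929 and at 23.0, 19.6, 37.8 and 55.7 in the manipulated libraries. In OCI it stood at 6.47 in wild type and at 16.9, 40.5, 20.2 and 27.1. Its ratios to wild type ran from 1.87 in H929 knockdown 2 to 6.26 in OCI knockdown 2.

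Of 26 listed NF-kB targets and feedback genes 19 passed the filter on low values, 2 of them with both wild-type libraries under 1 FPKM. Those 2 passed only through the manipulated libraries, and EBI3, counted here as higher, is 1 of them. Of the 19 tested, 6 were higher in all 8 libraries (31.6%, against 7.17% of all tested genes) and 0 were lower. The median was 0.95. The filter thus favoured higher members of this list in advance, in its counts and its medians. BCL3, a nuclear cofactor of NF-kB p50 and p52, stood at 5.81 FPKM in wild type of H929 and at 6.46, 14.8, 11.1 and 24.4 in the manipulated libraries. In OCI BCL3 stood at 2.16 in wild type and at 8.94, 26.1, 21.2 and 52.6. H929 knockdown 1 was close to wild type, and protein was highest in both lines. The inhibitor NFKBIE differed by 0.95 ± 0.47. EBI3, a subunit of interleukin-27 and interleukin-35, was listed at 0 in H929 wild type and at 0.348 FPKM in OCI wild type. In the manipulated H929 libraries EBI3 stood at 0.713 to 2.39 FPKM. The list's median was -0.03 in H929 knockdown 1 and 0.33 to 2.37 in the 7 other libraries, and 12 members were higher in all 7 without that library, where 9.37% of all tested genes were. NFKB1, which encodes the p105 and p50 subunit, had a fitted difference of -0.08 ± 0.29.

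Interferon-stimulated genes are switched on by a transcription factor complex that holds STAT2 and IRF9. Of 40 listed, 21 passed the filter on low values. Of these 7 were higher in all 8 libraries (33.3%, against 7.17% of all tested genes) and 0 lower. The median was 0.54. IFI6, an interferon-induced protein of mitochondria and endoplasmic reticulum, stood at 1.61 FPKM in wild type of H929 and at 3.66, 7.10, 9.38 and 10.5 in the manipulated libraries. In OCI IFI6 stood at 2.33 in wild type and at 5.34, 8.20, 9.37 and 5.99. Its smallest ratio to wild type was 2.28, in H929 knockdown 1, and its fitted difference 1.46 ± 0.34. IRF9 stood at 4.38 FPKM in wild type of H929 and at 13.1, 9.45, 11.5 and 15.2 in the manipulated libraries. In OCI IRF9 stood at 4.78 in wild type and at 7.87, 18.0, 19.8 and 27.4. Its partner STAT2 differed by 1.43 ± 0.45. Several classical members did not lie on 1 side of wild type, such as OAS2 (-0.06 ± 0.41), EIF2AK2 (-0.05 ± 0.33) and ADAR (-0.20 ± 0.20).

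MHC class II molecules present peptides on B cells and are normally shut off in plasma cells, where their activator CIITA is repressed. Of 13 listed members 8 passed the filter on low values, and 4 of these stood under 1 FPKM in both wild-type libraries and so passed through the manipulated libraries alone. The count of higher members (4) and their median therefore support nothing. CIITA stood at 2.87 FPKM in wild type of H929 and at 4.93, 5.11, 6.97 and 6.19 in the manipulated libraries. In OCI CIITA stood at 3.62 in wild type and at 13.6, 16.4, 9.34 and 15.9. CD74, the invariant chain, stood at 0.634 FPKM in wild type of H929 and at 0.931, 2.71, 5.53 and 9.46 in the manipulated libraries. In OCI CD74 stood at 1.21 in wild type and at 24.8, 39.98, 12.8 and 37.6. In both genes the manipulated OCI libraries lay above the manipulated H929 libraries, but how many of all tested genes separate the lines so was not counted. The difference between lines was 2.11 ± 1.15 for CD74 and 3.18 ± 1.32 for HLA-DPA1, and neither passed the limma interaction test (adjusted p = 0.9999 for both). HLA-DPA1 was listed at 0 in H929 wild type, at 0.336 to 1.83 FPKM in the manipulated H929 libraries, and at 0.847 in OCI wild type against 7.00 to 60.3. The summed level of 8 myeloid markers, cells that also use class II, was 1.16 to 3.27 FPKM in wild type and 1.35 to 17.6 in manipulated libraries. In OCI the 8 markers summed to 3.27 FPKM in wild type and to 9.83, 2.93, 8.07 and 17.6 in the manipulated libraries. Of these markers, CSF1R stood at 0.0188 FPKM in OCI wild type and at 0.604, 0.790, 2.29 and 0.473 in the manipulated OCI libraries. The part of such RNA in the class II values was not tested. Of 15 genes of MHC class I and peptide loading 6 were higher in all 8 and 0 lower, with HLA-B at 1.12 ± 0.34, HLA-F at 1.26 ± 0.40, the light chain B2M at 0.68 ± 0.31 and the immunoproteasome subunit PSMB9 at 0.66 ± 0.23.

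**Figure D3:**
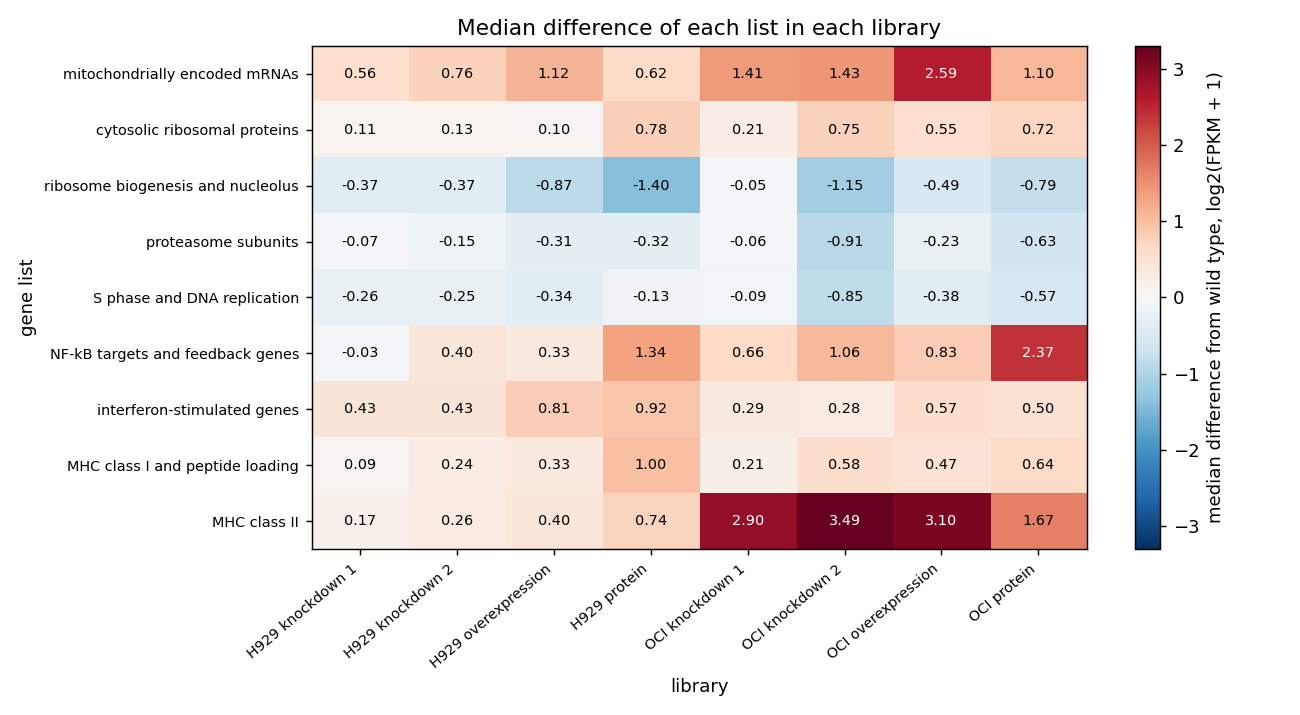
Median difference from wild type, log2(FPKM + 1), of 9 gene lists (rows) in each manipulated library (columns), printed in each cell and coloured red above 0 and blue below. The mitochondrially encoded mRNAs have medians of 0.56 to 2.59, ribosome biogenesis genes of -0.05 to -1.40, and the MHC class II row rests on the 8 of 13 listed genes that passed the filter on low values.

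Further high genes fell outside these groups. TRANK1, a large protein with ankyrin and tetratricopeptide repeats, stood at 0.263 FPKM in wild type of H929 and at 3.53, 2.39, 6.50 and 2.22 in the manipulated libraries. In OCI it stood at 2.53 in wild type and at 6.10, 10.2, 10.99 and 5.26. Overexpression was highest in both lines, and OCI wild type lay within the range of the manipulated H929 libraries. SGK1, a kinase induced by serum and glucocorticoids, stood at 2.55 FPKM in wild type of H929 and at 5.98, 5.90, 4.43 and 10.5 in the manipulated libraries. In OCI SGK1 stood at 6.29 in wild type and at 28.2, 21.1, 20.2 and 29.5. Its fitted difference was 1.43 ± 0.30. BTG2, an antiproliferative gene that p53 can induce, differed by 1.74 ± 0.48 and reached 118 FPKM in OCI protein against 13.7 in OCI wild type. The transcription factors NFIX (1.4996 ± 0.38) and NFATC4 (1.93 ± 0.54) were also among the 12 leading genes. The ciliary protein LZTFL1 (1.95 ± 0.58), BCAS3 (1.51 ± 0.49) and TPRG1 (1.23 ± 0.34) made up the rest. Without manipulation, NFATC4 had 0.864 (H929) and 0.959 FPKM (OCI), and TPRG1 0.701 and 0.694. Both genes thus passed the filter on low values only through the manipulated libraries, which favours higher genes in advance.

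Stress and death lists held few genes on 1 side. The higher share was 12.9% for ATF4 targets and 12.5% for p53 genes, against 7.17% of all tested genes (6.56% lower), and with 3 or 4 genes a list the values below describe single genes. Of 16 glucocorticoid-responsive genes 3 were higher in all 8 libraries and 2 lower; DDIT4, an inhibitor of mTORC1, differed by 1.92 ± 0.76, but FKBP5, a standard glucocorticoid target, by -0.57 ± 0.29. Of 31 ATF4 targets 4 were higher in all 8 and 0 lower. DDIT3, which encodes the stress factor CHOP, stood at 4.60 FPKM in wild type of H929 and at 7.24, 5.95, 5.95 and 78.7 in the manipulated libraries. In OCI DDIT3 stood at 3.94 in wild type and at 5.75, 77.2, 8.86 and 68.6. Its level was thus high in both protein libraries and in OCI knockdown 2, while the 5 other manipulated libraries stood at 5.75 to 8.86 FPKM. ASNS, which makes asparagine, stood highest in OCI knockdown 2 and OCI protein (315 and 274 FPKM, against 36.3 in wild type). Of 24 p53 and growth-arrest genes 3 were higher and 1 lower, among them CCNG2 at 1.22 ± 0.43, GADD45B at 1.23 ± 0.59 and TIGAR at -0.45 ± 0.26. Of 13 BCL2 family genes 3 were higher and 0 lower. The 3 were BH3-only promoters of cell death: BMF (1.41 ± 0.47), PMAIP1 (0.65 ± 0.28) and BIK (0.56 ± 0.27). BIK was near the floor in H929, at 0.122 FPKM in wild type and 0.137 to 0.759 in the manipulated libraries. Its smallest difference was 0.019, in H929 knockdown 1. In OCI BIK stood at 3.92 in wild type and at 6.63 to 8.70 in the manipulated libraries. Of 25 AP-1 and immediate early genes 3 were higher and 1 lower, with KLF6 at 0.66 ± 0.36 and MAFK at -0.39 ± 0.24.

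Ribosomal protein genes were described apart from the genes that build the ribosome. Of 79 cytosolic ribosomal protein genes 39 were higher in all 8 libraries (49.4%, against 7.17% of all tested genes) and 0 lower. The median was 0.42. RPS27, a small-subunit protein, stood at 1727 FPKM in wild type of H929 and at 2307, 2210, 3440 and 4323 in the manipulated libraries. In OCI RPS27 stood at 2089 in wild type and at 3472, 5485, 3734 and 4461. This list depended on the scaling: after quantile normalization 6 of 79 were higher in all 8, against 5.46% of all tested genes, and the median was 0.10. These mRNAs are short and have many near-identical pseudogene copies, so their values are uncertain.

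Ribosome biogenesis genes, which process rRNA and assemble the subunits in the nucleolus, were the list with the largest share of lower genes. Of 34 tested, 15 were lower in all 8 libraries (44.1%, against 6.56% of all tested genes), 0 were higher, all 34 had fitted differences below 0, and the median was -0.68. UTP4, a member of the complex that processes the small-subunit rRNA, stood at 84.2 FPKM in wild type of H929 and at 41.6, 54.0, 43.9 and 28.98 in the manipulated libraries. In OCI UTP4 stood at 59.6 in wild type and at 47.0, 23.0, 43.5 and 36.7. Its fitted difference was -0.86 ± 0.29. RRP9 stood at 45.5 FPKM in wild type of H929 and at 31.2, 33.6, 16.3 and 12.2 in the manipulated libraries. In OCI RRP9, a component of the U3 particle that guides rRNA cleavage, stood at 43.4 in wild type and at 33.7, 10.8, 32.6 and 18.1. H929 protein was the lowest H929 library and OCI knockdown 2 the lowest OCI library in both genes, with H929 overexpression close to protein for RRP9. NOP14 differed by -0.78 ± 0.34 and PES1 by -0.69 ± 0.32. After quantile normalization 12 of the 34 were lower in all 8, against 7.68% of all tested genes.

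ODC1, the rate-limiting enzyme of polyamine synthesis and a classical MYC target, led the lower genes. It stood at 694 FPKM in wild type of H929 and at 475, 421, 328 and 188 in the manipulated libraries. In OCI it stood at 732 in wild type and at 465, 157, 450 and 340. Its ratios to wild type ran from 0.21 in OCI knockdown 2 to 0.68 in H929 knockdown 1, and its fitted difference was -1.11 ± 0.41. TFRC, the transferrin receptor that brings iron into cells, stood at 76.8 FPKM in wild type of H929 and at 47.7, 53.4, 39.5 and 29.1 in the manipulated libraries. In OCI TFRC stood at 174 in wild type and at 109, 25.2, 66.1 and 27.3. The RNA-binding protein STAU2 differed by -0.95 ± 0.28 and NCR3LG1, the ligand B7-H6 of the NK cell receptor NKp30, by -1.35 ± 0.41. RASL10B (-1.05 ± 0.32), the dioxygenase-like HPDL (-1.17 ± 0.55), the peroxisome factor PEX10 (-0.71 ± 0.24) and ATXN10 (-0.59 ± 0.21) followed. Further entries are uncertain as strand and read assignment are not given in the sources used here: the read-through gene HSPE1-MOB4 and the antisense genes TUBA1B-AS1 and SLC9A3R1-AS1.

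Of protein turnover and folding genes, the proteasome list had the largest share below wild type. Of 32 proteasome subunits 8 were lower in all 8 libraries (25.0%, against 6.56% of all tested genes) and 0 higher. The median was -0.33. PSMD11, a regulatory-particle subunit, differed by -0.84 ± 0.33, and PSMC4, PSMC3 and the ubiquitin receptor ADRM1 by -0.55 ± 0.27, -0.51 ± 0.26 and -0.47 ± 0.25. Of 30 endoplasmic reticulum chaperone and unfolded protein response genes 5 were lower (16.7%) and 1 higher (3.33%, against 7.17% of all tested genes). HSPA5, the chaperone BiP, stood at 234 FPKM in wild type of H929 and at 162, 149, 166 and 109 in the manipulated libraries. In OCI HSPA5 stood at 142 in wild type and at 127, 87.6, 96.4 and 64.1. The higher gene was XBP1, the transcription factor of the same response, at 0.60 ± 0.24. MANF (-0.56 ± 0.24) and PDIA6 (-0.33 ± 0.21) were on the side of HSPA5. Of 18 heat shock genes 3 were lower (16.7%): HSP90AB1, AHSA1 and STIP1, at -0.58 ± 0.38, -0.60 ± 0.35 and -0.47 ± 0.30. The heat shock list was divided: 7 of 18 members had fitted differences above 0, and the median was 0.86 in H929 protein, 0.13 over H929 and -0.66 over OCI.

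**Figure D4:**
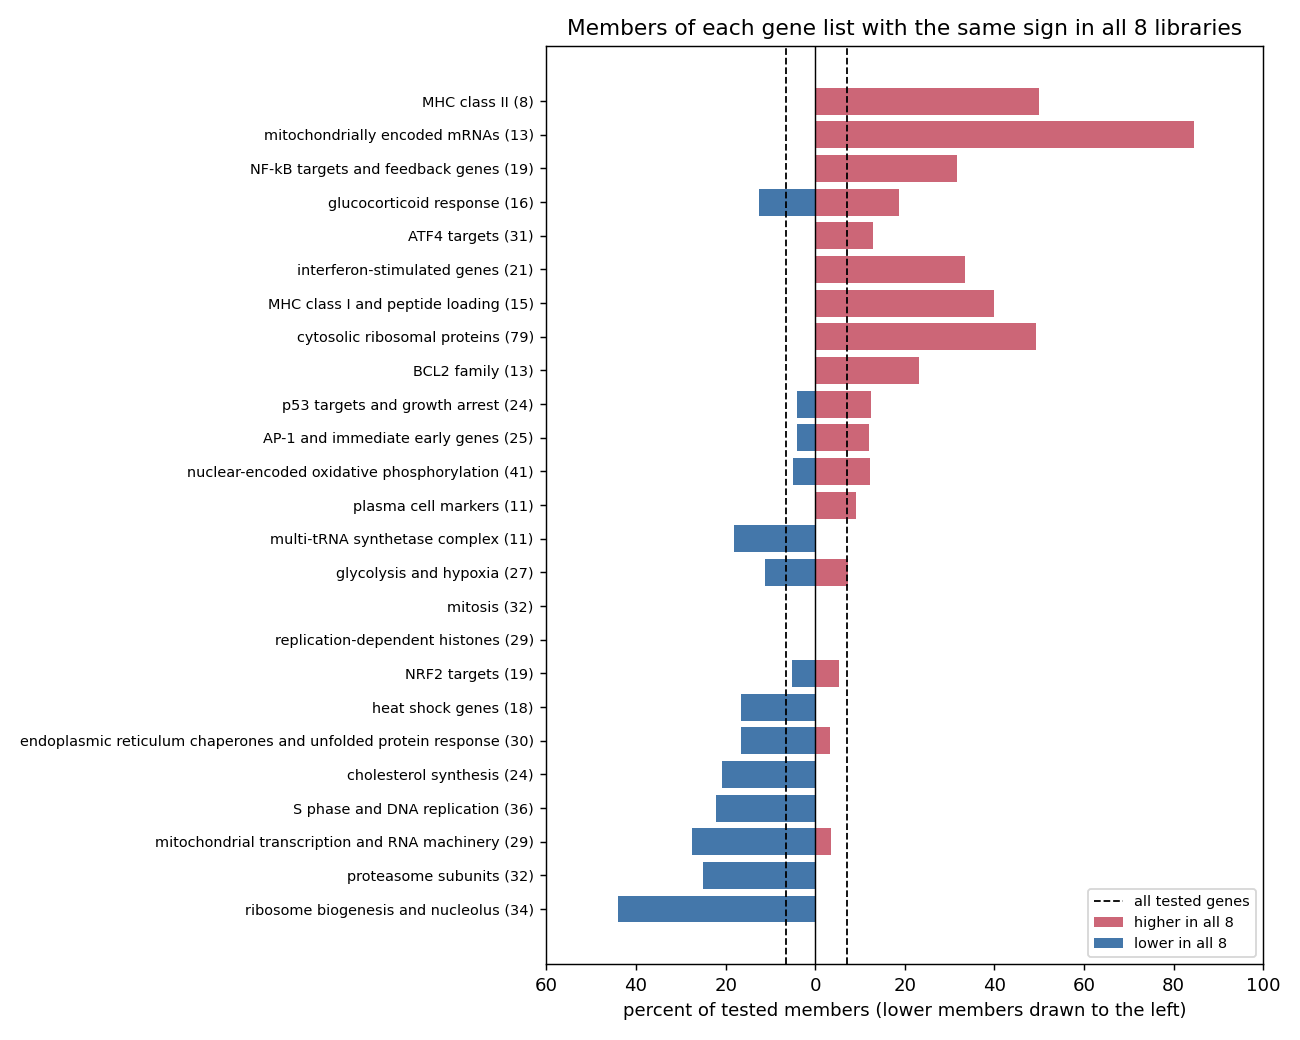
Percent of the tested members (number in brackets) of each gene list that were higher (red, right) or lower (blue, left) than wild type in all 8 libraries, for lists with at least 8 tested members, ordered by median difference. Where a list had more members than passed the filter on low values (MHC class II at 8 of 13), the row shows those that passed. Dashed lines mark all tested genes at 7.17% and 6.56%, mitochondrially encoded mRNAs reach 84.6% on the right, and ribosome biogenesis reaches 44.1% on the left.

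Cell cycle and metabolism divided by list. Of 36 S phase and DNA replication genes 8 were lower in all 8 libraries (22.2%) and 0 higher, with a median of -0.33. The helicase components GINS2 and GINS1 differed by -0.68 ± 0.28 and -0.70 ± 0.35, and the flap endonuclease FEN1 by -0.75 ± 0.35. Of 32 mitosis genes 0 were on 1 side in all 8, with a median of -0.01 (H929 at 0.28, OCI at -0.30), and of 29 replication-dependent histone genes likewise 0. Of 24 cholesterol synthesis genes 5 were lower (20.8%, against 6.56% of all tested genes) and 0 higher. LSS differed by -0.65 ± 0.22, CYP51A1 by -0.58 ± 0.22 and NSDHL by -0.53 ± 0.23. In H929 the median of this list was 0.06, in OCI -0.68. Of 27 glycolysis and hypoxia genes 2 were higher (7.41%) and 3 lower (11.1%). All tested genes stood at 7.17% higher and 6.56% lower, so the values below describe single genes. NDRG1 (1.27 ± 0.32) and BNIP3L (1.04 ± 0.32), both hypoxia-responsive, were higher, while lactate dehydrogenase LDHA (-0.71 ± 0.36) and hexokinase HK2 (-0.77 ± 0.43) were lower.

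The multi-tRNA synthetase complex had a median near wild type, with members on both sides. Of its 11 members, AIMP1 among them, 2 were lower in all 8 libraries (18.2%, against 6.56% of all tested genes) and 0 higher. The median was 0.03, and 6 of the 11 had fitted differences above 0. EEF1E1, the scaffold AIMP3, differed by -0.83 ± 0.38 and the lysyl-tRNA synthetase KARS1 by -0.47 ± 0.30. Of 19 NRF2 targets 1 was higher and 1 lower (5.26% each), SQSTM1 at 0.50 ± 0.31 and GCLM at -0.60 ± 0.29. Of 11 plasma cell markers 1 was higher (9.09%), XBP1, and 0 lower. All tested genes stood at 7.17% higher and 6.56% lower, so the NRF2 and plasma cell values describe single genes. Among 7 nuclear-retained long non-coding RNAs and 5 short structural RNAs none had 1 sign in all 8 libraries. For the short structural RNAs the median was above 0 in 7 libraries and -18.8 in OCI protein, and 3 of 5 were higher in the 6 libraries without OCI knockdown 1 and OCI protein. The filter on low values kept 16 of 18 listed glucocorticoid genes, 31 of 33 ATF4 targets, 24 of 29 p53 genes, 13 of 16 BCL2 family genes, 25 of 30 AP-1 genes, 24 of 25 cholesterol genes, 27 of 31 glycolysis genes, 29 of 34 histone genes, 19 of 20 NRF2 targets and 7 of 9 nuclear-retained RNAs. No list held a gene called by limma.

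Whether the difference from wild type itself differed between the lines was tested as an interaction. It was called for 6 genes (0.0466%), 0 of them same-sign genes, and 99 genes had an unadjusted p under 0.05 (0.769%). Of the 6, 5 were listed at 0 in every library but OCI wild type, so they could not have 1 sign in all 8 libraries. SNORD3D stood at 38.0 FPKM in wild type of H929 and under 0.1 elsewhere. Among the 923 higher genes 5 had an unadjusted p under 0.05 for the difference between lines (0.542%), and among the 845 lower genes 1 (0.118%). Genes that moved in opposite directions in the lines were left out of both groups by their definition. These shares therefore cannot show that the lines responded alike. The fitted difference was larger in OCI than in H929 for 65.7% of the higher and 62.7% of the lower genes, against 56.3% of all tested genes.

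Whether knockdown, overexpression and protein differed from each other was tested in the 8 manipulated libraries alone, which leaves the wild-type values out. limma's F test called 0 genes (0%), with a smallest adjusted p of 0.640, and 946 genes had an unadjusted p under 0.05 (7.35%). Among the higher genes 104 had such a p (11.3%) and among the lower genes 30 (3.55%). TNFAIP3 and MT-ND5 had adjusted p-values of 0.640 each, with protein highest in the former and overexpression in the latter in both lines. Leaving out 1 library gave 13 calls without H929 protein, 8 without OCI protein, 6 without H929 overexpression, 2 without H929 knockdown 1 and 1 without OCI knockdown 1, with a lone library of an arm assumed to vary like the others. A p above the threshold with 4 residual degrees of freedom does not show that the manipulations acted alike.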

How the data were processed

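The authors deposited 1 table of FPKM values for 58229 human Ensembl genes; depth in reads is unknown, so counting intervals could not be given, a 0 may be a failed estimate, and relative depth was read from the commonest ratio between low values. Poly(A) RNA was sequenced as paired ends, per the labels' protocols, which also speak of adipose material; the adipocyte markers ADIPOQ, LEP, FABP4 and PLIN1 did not exceed 0.223 FPKM in any library, whereas CFD stood at 7.61 and 7.92 FPKM in wild type and 7.30 to 20.5 in the manipulated libraries. The submitters' processing notes list Bowtie 0.12.2, StringTie 1.3.0 and HISAT2 2.0 with no roles, and the mouse build mm8; no coordinates were taken from the files. Columns were mapped to libraries by name.

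log2(FPKM + 1) values of the 12872 genes whose mean reached 1 FPKM (10881 protein-coding and 12041 with a symbol; 628 listed at 0 in some library) were fitted with limma 3.58.1 in R 4.3.3 with line and manipulated state as terms (7 residual degrees of freedom), with their interaction (6), and with manipulation in the 8 manipulated libraries (4). Variances were moderated with a trend, tests were two-sided, and p-values were adjusted by Benjamini-Hochberg over all genes at 0.05. The fits were tested on simulated data. Same-sign counts carry no test. The members and gene lists were chosen with earlier results of these data known.

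Named genes are AIMP1, the 4 genes given with the comparison (MT-ND5, TNFAIP3, TRANK1 and SGK1), the 12 same-sign genes in each direction with a symbol, above 0 in all libraries and with the largest smallest difference, and up to 4 same-sign members of each list. Some genes that the rule selects are left out here. Others were named after their values were seen: mixed-sign members, genes at the expression limit and marker genes. Transcript length, GC content and gene type came from GENCODE 29. Alternatives were other pseudocounts, filters, median centring, quantile normalization, equal weights, a knockdown number as replicate block, and omission of each library or manipulation.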

Additional observations from a re-analysis of the deposited data

Results flagged for a closer look

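For 5 of 97 named genes, 1 of the 8 manipulated libraries stood farther from the others than Dixon's 95% limit of 0.526 for 8 values; chance gives about 1 in 20. On the log2(FPKM + 1) scale these were STAU2 in H929 knockdown 2 at -1.90 from wild type, TUBA1B-AS1 in OCI knockdown 2 at -2.18, KARS1 in OCI protein at -1.34, COX7C in H929 protein at 1.002 and HSP90AB1 in OCI protein at -1.84.

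The 6 genes whose difference from wild type differed between lines by the limma interaction test are given as OCI minus H929. RNVU1-30 and RNVU1-31, copies of the U1 RNA with identical values, stood at -7.64 each, BRD9P2 at -4.04, ENSG00000269125 at -5.67 and ENSG00000274630 at -9.26. SNORD3D stood at 5.27. Each rests on 1 wild-type library.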

How the results depend on the processing

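Calls of higher genes stayed at 0 under every alternative run. Calls of lower genes were 0, but 21 with no filter on low values, and 1 without the overexpression libraries, without the knockdown libraries, or without OCI knockdown 1 and OCI protein (chosen after seeing the data); leaving out 1 library gave 0 to 6. Calls by line went from 6 to 0 with a pseudocount of 0.1, 451 with no filter, 3 at a mean of 5 FPKM and 1 among genes above 0 in all 10 libraries (chosen after seeing the data). When 1 manipulated library was left out they were 5 to 9. Calls among the manipulations went from 0 to as many as 13 when 1 library was left out (0 to 13).

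Same-sign counts (923 and 845) were 961 to 2704 higher and 875 to 2335 lower when 1 library was left out, the largest without a wild-type library, which drops that line; they were 1360 lower without protein, 2465 and 1868 without knockdown, 48 and 7 at a difference of 0.5, and 1777 and 1556 without OCI knockdown 1 and OCI protein. Fewer libraries can only raise such counts.

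AIMP1, with opposite changes by design, turned from -0.11 to 0.30 with equal weights, 1.12 without knockdown and 0.048 without OCI knockdown 1 and OCI protein, and ranged from -0.48 to 0.20 when 1 library was left out, with 0.20 without H929 knockdown 2 or OCI knockdown 2, 0.058 without OCI knockdown 1 and 0.18 without OCI wild type. No other gene selected by the naming rule changed direction or became called; the genes called in an alternative, RNVU1-7 and RNU2-63P among them, lie outside that rule. After quantile normalization the median of ribosomal proteins was 0.10 and that of glycolysis -0.18; the cause was not tested.

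The replicate block, coded on the knockdown numbers, gave 0 higher and 0 lower calls. Deviations of same-numbered knockdown libraries correlated at 0.0757 over genes, and nothing in the labels pairs them. Absolute depth is unknown, and 1 wild-type library a line limits every comparison.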
